A study of Mus musculus with 4 samples.

Results

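The late response of skeletal muscle to a glucocorticoid was read from 2 of the 4 arrays of the series: gastrocnemius of adrenalectomized mice 24 h after cortisol, set against gastrocnemius of adrenalectomized mice that had received none. The members were all 8251 genes that had a probe set with a single gene symbol, which covers 10833 of the 12422 probe sets that were not controls. Of these genes, 6228 could be compared because their signal reached a floor of 100 on at least 1 of the 2 arrays, and 5650 reached it on both. The remaining 2023 genes lay below the floor on both arrays and were given no ratio.

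Every array (Affymetrix MG-U74Av2, short oligonucleotide probes) held RNA extracted with Trizol from the gastrocnemius muscles of 10 mice, pooled. The reference group of the comparison was adrenalectomized 1 week before sampling. The 24 h group was also adrenalectomized, at an interval before sampling that the labels do not state, and was injected intraperitoneally with 0.1 mg of cortisol 24 h before the muscles were taken. Another group was treated like this one but sampled 3 h after the injection, and the last was intact mice, whose glands were left in place. The signals of those other two arrays are given beside each result to place it, and are not comparisons of their own. No vehicle-injected group, time of day, sex, age or strain is named in the labels, so handling, injection and hour of sampling cannot be told apart from cortisol.

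Glucocorticoids act through the glucocorticoid receptor, a transcription factor held in the cytoplasm by chaperones until it binds hormone, after which it enters the nucleus and switches target genes on or off. In skeletal muscle the hormone is known for promoting protein breakdown, restraining insulin and growth factor signalling, and shifting fuel use from glucose towards fatty acids. Its early targets include feedback genes such as Fkbp5, brakes on growth signalling such as Ddit4, and metallothioneins. Because glucocorticoids are themselves secreted in a daily rhythm and drive Per1, they are also known as a time signal for clocks in peripheral tissues.

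There was 1 array per group, so no difference below has a replicate check, no test was possible, and group, pool of mice and position in the fluidics station (module 1 for intact, 2 for adrenalectomized, 3 for 3 h and 4 for 24 h) cannot be told apart. In RNA from whole muscle, fewer cells of a kind and less RNA per cell cannot be told apart either. The arrays were alike in overall signal: the median lay between 189 and 199 and the share of probe sets at or above the floor between 63.0% and 64.4%. The ratio of the 3′ to the 5′ Gapdh control probe set, a sign of RNA integrity, was 0.825 at 24 h and between 0.876 and 0.888 on the other arrays. The tissue label held for the fast fibre genes, which read up to 36007 at 24 h (Tnnt3, fast troponin T). The log2 signals of the 24 h and adrenalectomized arrays correlated with r = 0.982 across probe sets, which are not independent replicates and share probe brightness.

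At 24 h, 79 genes were at least 2-fold higher than on the adrenalectomized array, which is 1.27% of the 6228 compared, and 66 were at least 2-fold lower, which is 1.06%. At the wider limit of 1.5-fold, 342 genes were higher (5.49%) and 281 lower (4.51%). The median log2 ratio over all compared genes was 0.01. The split of the 2-fold genes depends on how the arrays are scaled: 54.5% of them were higher with the 2% trimmed mean of each array set to 500. With the arrays scaled to ribosomal protein probe sets, which moves the median of all genes to -0.29, 18.1% were higher. With only those ribosomal sets that reached the floor on all 4 arrays, 44.3% were higher and the median was -0.08. Quantile normalization gave 48.9% higher, and a floor of 200 gave 39.5%. Scaling to all ribosomal sets changes every log2 ratio of a gene measured on both arrays by -0.31, so ratios named below that lie between 0 and 0.31, such as those of Bhlhe40 (0.27), Gadd45g (0.13) and Cdkn1a (0.31), drop to or under 0 with it.

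Most genes past 2-fold were dim. Among 2214 genes with a mean signal under 300, 64 were higher and 42 lower, which together is 4.79%. Of 2470 genes between 300 and 1000, 12 were higher and 15 lower, or 1.09%. Of 1544 genes at or above 1000, 3 were higher and 9 lower, or 0.777%. The only spread within these data is that between 2 probe sets of the same gene, which share the RNA and the array. The SD of a log2 ratio from this source was 0.317 over 928 genes, 0.362 where the dimmer set read under 300 and 0.209 where it read 1000 or more. It covers probe and spot noise and contains no variation between mice or pools. Of 6 genes past 2-fold that had a second probe set measured on both arrays, 5 had the same sign in that set and 2 passed 1.5-fold in the same direction. Where 1 of the 2 arrays was below the floor, the fold is a lower bound computed against 100 and is written as "at least". That was the case for 36 of the 79 higher and 27 of the 66 lower genes.

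**Figure D1:**
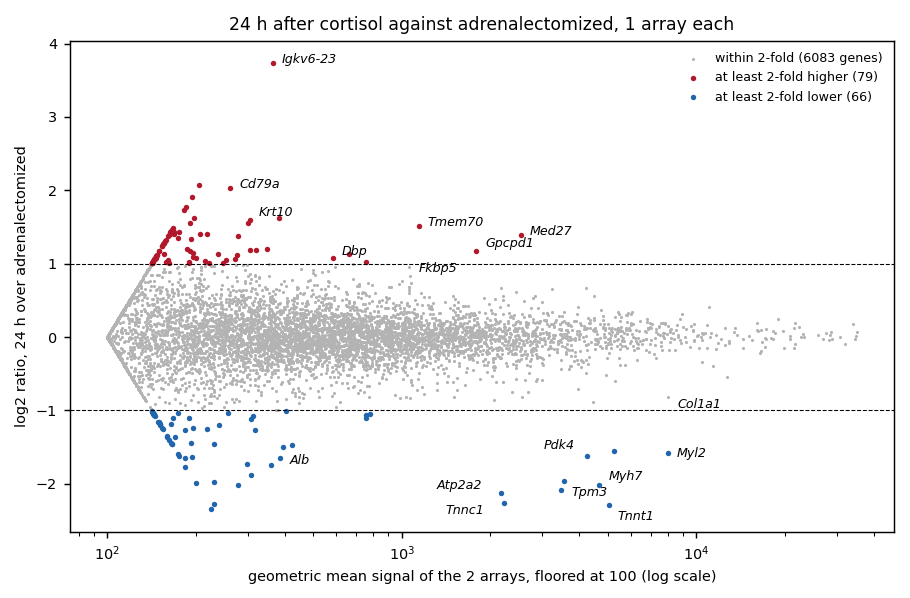
Log2 ratio of the 24 h array over the adrenalectomized array (vertical) against the geometric mean signal of the 2 arrays floored at 100 (horizontal, log scale), 1 point per compared gene. The 79 genes at least 2-fold higher (red) crowd at low signal, where the oblique left edges are set by the floor, while among the brightest genes a separate group of 9 lower genes (blue), such as Tnnt1, Myh7 and Pdk4, stands below -1; Fkbp5 (0.83) and Col1a1 (-0.82) are labelled for reference and lie inside 2-fold.

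The 2-fold genes were also placed among all 4 arrays. The 24 h array was the highest of the 4 for 61 of the 79 higher genes (77.2%) and the adrenalectomized array the lowest for 55 (69.6%), against 33.1% and 21.1% of all compared genes. Of the 66 lower genes, 58 had their lowest signal at 24 h (87.9%) and 42 their highest on the adrenalectomized array (63.6%), against 25.2% and 24.1% of all genes. These shares are partly fixed by choosing genes on 2 of the 4 values and are given as a description. At 24 h, 23 of the higher and 9 of the lower genes were within 1.5-fold of the intact array, as were 90.3% of all genes compared.

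Grouped by function, the clearest departures from the median of all genes were in slow fibre genes (median log2 ratio -1.77), hepatocyte markers (-0.56), basement membrane genes (-0.39), fibrillar collagens and matrix remodelling genes (-0.38), epidermis and hair follicle markers (0.60), and B and T lymphocyte markers (0.77). The medians of the fast fibre, oxidative phosphorylation, atrophy and autophagy, proteasome, glycolysis and glucocorticoid-induced lists all lay between -0.03 and 0.03. The lists are described by counts and medians alone, beside those of all genes, and no list was tested.

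**Figure D2:**
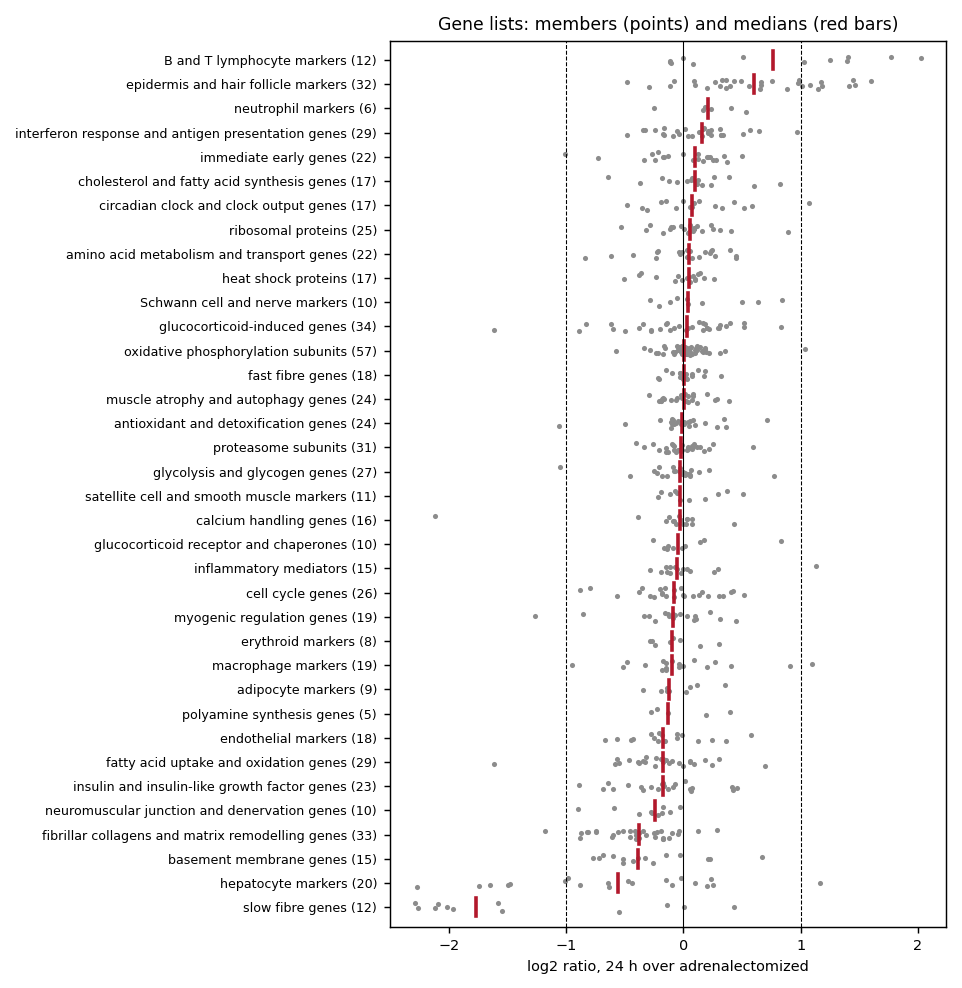
Log2 ratio of the 24 h array over the adrenalectomized array for every compared member of 36 gene lists (grey points, 1 per gene; the number compared is in brackets), with list medians as red bars and dashed lines at 2-fold. Lymphocyte (0.77) and epidermis (0.60) markers are at the top, slow fibre genes (-1.77) and hepatocyte markers (-0.56) at the bottom, and most lists are centred near 0.

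The genes that glucocorticoids are known to induce had, for the most part, signals at 24 h near or under those of the adrenalectomized array. Of 34 compared members of this list, 1 was at least 1.5-fold higher and 5 lower, against 5.49% and 4.51% of all genes. Past 2-fold were 0 and 1, against 1.27% and 1.06%, and the median was 0.03. The 1 member above 1.5-fold was Fkbp5, which encodes an immunophilin that binds the receptor complex and lowers its affinity for hormone. Fkbp5 read 1349 in intact muscle, 796 after adrenalectomy, 3771 at 3 h and 1418 at 24 h. Its 24 h signal was thus 1.78-fold above the adrenalectomized array and 1.05-fold above the intact one.

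Several early targets stood high on the 3 h array alone. Ddit4, also called Redd1, an inhibitor of the growth kinase mTORC1, read 338 intact, 339 adrenalectomized, 4250 at 3 h and 223 at 24 h, the lowest of the 4. Its 24 h signal was 1.52-fold below the adrenalectomized array. Cebpd, a transcription factor of the C/EBP family, read 813, 1314, 5503 and 739.5 in the same order, and was 1.78-fold lower at 24 h than after adrenalectomy but within 1.1-fold of intact. The related Cebpb read 1730, 1793, 3682 and 1483. Both C/EBP genes had their lowest signal at 24 h.

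The metallothioneins, small proteins that bind zinc and copper, parted slightly. Mt2 read 1101, 1047, 6819 and 1072 over intact, adrenalectomized, 3 h and 24 h muscle, so that the 3 arrays other than 3 h were within 1.1-fold of each other. Mt1 read 568, 441, 1529 and 313 and was 1.41-fold lower at 24 h than on the adrenalectomized array. Sesn1, a sestrin that restrains mTORC1, read 716, 828, 2043 and 652, with a log2 ratio of -0.34 at 24 h. Errfi1, an inhibitor of epidermal growth factor receptors, read 733, 651, 1634 and 635, a ratio of -0.04. For all these genes the adrenalectomized and 24 h values were close beside the excursion at 3 h.

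A few early targets kept a signal somewhat above the adrenalectomized array, though within 1.5-fold. Nfkbia, which encodes the NF-κB inhibitor IκBα, read 779.8 intact, 607 adrenalectomized, 2340 at 3 h and 782 at 24 h, and its second probe set 575, 488, 1520 and 639. Their log2 ratios at 24 h were 0.37 and 0.39. Tiparp, an ADP-ribosyltransferase that is not in the list, read 309.6, 173, 2688 and 254, a ratio of 0.56, and Gadd45b, a stress response gene, had a ratio of 0.52. Gadd45g, of the same family, read 816, 580.3, 2146 and 635, a ratio of 0.13 that turns to -0.18 with ribosomal scaling. Each of these 24 h values lay between the adrenalectomized and 3 h ones.

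Other genes with a known or early response, of which Sox4 and Slc7a8 are not in the list, give a mixed picture. Cdkn1a, the cell cycle inhibitor p21, had 2 probe sets that disagreed in size: the brighter read 332 after adrenalectomy and 411 at 24 h (1.24-fold higher), the dimmer 113 and 256 (2.27-fold higher). Sox4, a developmental transcription factor, read 184, 241, 1895 and 129 in its brighter set, which is 1.86-fold lower at 24 h, and 179, 302, 1574 and 296 in the other, a ratio of -0.03. Map3k6, a stress kinase gene, was below the floor at 49.3 and 53.8 on the adrenalectomized and 24 h arrays, against 758 at 3 h, and has no ratio here. Sgk1, a kinase of the insulin pathway, read 4396 and 4064. Slc7a8, a transporter of neutral amino acids, read 144 and 141. For both the difference was under 1.1-fold.

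Tsc22d3, the leucine zipper gene also known as Gilz and a textbook target in many cells, read 177 intact, 256 adrenalectomized, 155 at 3 h and 232 at 24 h on this array type, so its 3 h signal was the lowest. The receptor itself, Nr3c1, read 275, 311, 197 and 260.2, a log2 ratio of -0.26 at 24 h. The list of the receptor and its chaperones had a median of -0.05 over 10 members. Both genes are dim enough that ratios of this size are below the SD between probe sets.

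**Figure D3:**
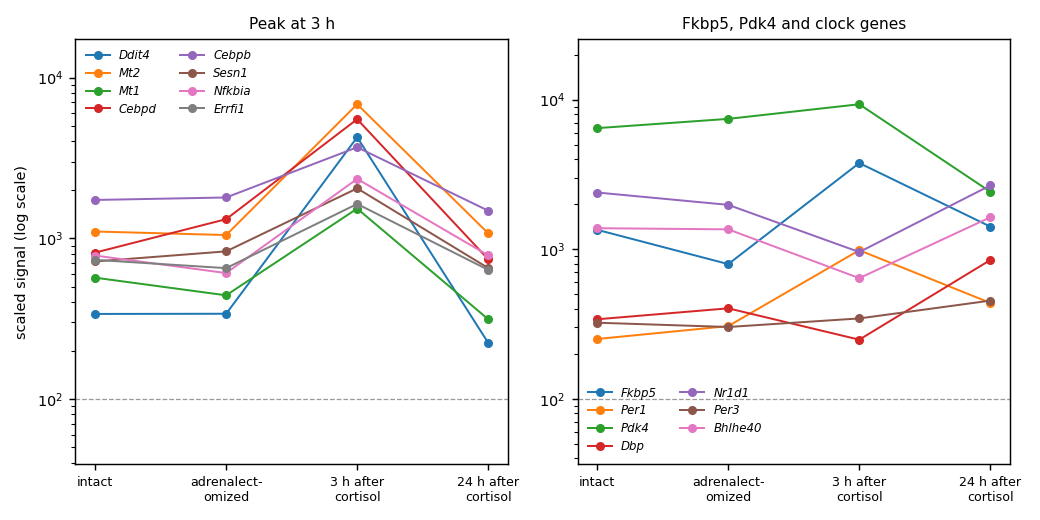
Scaled signal (log scale) on the 4 arrays, 1 point per array and gene with lines joining the values of a gene, for early glucocorticoid targets (left) and for Fkbp5, Pdk4 and clock genes (right); the dashed line is the floor of 100. All genes on the left peak at 3 h. By 24 h Nfkbia (782) stays somewhat above its adrenalectomized level (607). The others return to near or under that level, such as Ddit4 from 4250 to 223. On the right, Fkbp5 (1418) stays above the adrenalectomized array (796) and Pdk4 is lowest at 24 h (2425). Dbp (847) and Nr1d1 (2670) are highest there.

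Fuel selection genes included the largest reduction among bright genes outside the slow fibre list. Pdk4 encodes the kinase that switches off pyruvate dehydrogenase and so keeps glucose carbon from being oxidized. It read 6455 in intact muscle, 7443 after adrenalectomy, 9322 at 3 h and 2425 at 24 h. The 24 h signal was 3.07-fold below the adrenalectomized array, 2.66-fold below the intact one and the lowest of the 4. Ucp3, a mitochondrial carrier of muscle, showed a similar order at smaller size: 969, 1041, 1728 and 709.9, or 1.47-fold lower at 24 h than after adrenalectomy. Ppara, a nuclear receptor for fatty acids, read 426, 367, 841 and 367, with equal adrenalectomized and 24 h signals.

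Genes of fatty acid uptake and oxidation lay slightly lower as a list. Of 29 compared, 22 had a ratio below 0, and the median was -0.17. Past 1.5-fold was 1 in each direction, against 5.49% of all genes higher and 4.51% lower. These were Pdk4 down and Acot1, an acyl-CoA thioesterase, at least 1.62-fold up. Values for others were -0.58 for Ppargc1a, the mitochondrial coactivator PGC-1α, -0.57 for Etfdh, which passes electrons from fatty acid oxidation to the respiratory chain, and -0.46 for Cd36, a fatty acid transporter. Lpl, lipoprotein lipase, and Fabp3, the muscle fatty acid binding protein, each had -0.38. None of these passed 1.5-fold. Slow oxidative fibres are rich in many of these transcripts, and the slow fibre genes described below were lower on the same array; their part in these values was not tested.

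In glycolysis and glycogen metabolism 27 genes had a median of -0.02. Pfkfb3, which makes the allosteric activator of phosphofructokinase, was 1.71-fold higher at 24 h, with signals of 585 intact, 374 adrenalectomized, 267 at 3 h and 639 at 24 h. Its dimmer set had a log2 ratio of -0.20, and the 2 averaged 0.29. Slc2a1, the basal glucose transporter GLUT1, was dim and at least 2.08-fold lower, at 208 after adrenalectomy and below the floor at 24 h. Oxidative phosphorylation subunits, 57 in number, had a median of 0.01 and 1 member at least 2-fold higher, against 1.27% of all genes. That member was Atp5g1, a subunit of the ATP synthase ring, at 151 and 308. Its second set read 137 and 158, and over both sets Atp5g1 averaged 0.62, under 2-fold. Both lists were therefore centred on no difference.

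Genes of protein breakdown did not differ as a group. None of 24 atrophy and autophagy genes passed 1.5-fold in either direction, against 5.49% of all genes higher and 4.51% lower. The median of the 24 was 0.00. Foxo3, the transcription factor that activates many of them, read 541 intact, 524 adrenalectomized, 874 at 3 h and 551 at 24 h. The lysosomal proteases Ctsl and Ctsd had ratios of -0.18 and 0.12, and the largest values of the list were 0.39 for Capn2, a calpain protease, and -0.29 for Capn3, the muscle calpain. Of 31 proteasome subunits, 1 was at least 1.5-fold higher and 0 lower, against 5.49% and 4.51% of all genes. The 1 was Psmd5, which helps assemble the regulatory particle, at 595 and 899. The muscle ubiquitin ligases Fbxo32 and Trim63, and Foxo1 and Klf15, had no probe set with a single symbol and were not analysed here.

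Amino acid and polyamine genes held small differences. Glul, glutamine synthetase, a well-known glucocorticoid target of muscle, read 887, 815, 799 and 1073 over intact, adrenalectomized, 3 h and 24 h muscle. That probe set is of relaxed design and gives a ratio of 0.40 at 24 h. Its dimmer set, without a suffix, read 281, 311, 477 and 344, highest at 3 h, with a ratio of 0.15 at 24 h. The 2 sets of Glul thus disagree on which array is highest. Slc38a2, a transporter of glutamine and other neutral amino acids, was 1.54-fold lower at 1682 against 2582. Its other probe sets were under the floor on both arrays. They count as 0 in the average over all 4 sets, which was -0.15. Ampd3, which deaminates AMP, was 1.79-fold lower at 204 against 365. The polyamine enzyme Odc1 read 848 and 972.

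Of the clock genes compared, Per3, Cry2, Nr1d1, Nr1d2, Dbp and Bhlhe40 had their highest signal at 24 h. The same held for 33.1% of all compared genes, so this order does not set the list apart. The core clock is a loop in which Clock and Arntl activate Per, Cry and Nr1d1, whose products feed back on it, while Dbp and Tef are outputs that bind D-box elements. The 24 h sample was taken 1 day after injection, and with the hour of sampling unnamed, a difference in phase cannot be told apart from other differences. In this list of 17 compared genes the median was 0.07. At least 1.5-fold higher were 2, and 0 were lower, against 5.49% and 4.51% of all genes. Past 2-fold was 1, against 1.27% of all genes higher.

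Dbp, the D-box binding output factor, read 340.4 intact, 403 adrenalectomized, 249 at 3 h and 847 at 24 h, which is 2.1-fold above the adrenalectomized array and 2.49-fold above intact. Per3, a member of the Period family, read 323, 302, 345 and 454, or 1.5-fold higher. Both had their highest signal at 24 h. Per1, which the receptor activates directly, was highest at 3 h: it read 251, 306, 986 and 438, leaving it 1.43-fold above the adrenalectomized array.

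The repressors Nr1d1 (REV-ERBα) and Bhlhe40 (DEC1) moved alike across the arrays. Nr1d1 read 2396, 1981, 958 and 2670 and Bhlhe40 1383, 1359, 641 and 1636, in both cases lowest at 3 h and highest at 24 h, with log2 ratios of 0.43 and 0.27 to the adrenalectomized array, of which that of Bhlhe40 turns to -0.04 with ribosomal scaling. Cry1, a Cryptochrome repressor, had -0.48 and the related Cry2 0.33. Tef had -0.36, Arntl -0.19 and Clock -0.01. Clock genes thus had ratios on both sides of 0, but none of the negative ones reached 1.5-fold. That of Arntl was smaller than the SD between probe sets (0.317).

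The promoters of the 2 Period genes are shown because Per3 and Per1 had their highest signals on different arrays. The stretches are the 250 bases before the RefSeq start in GRCm38.p6, 5′ to 3′ on the gene's own strand, with the D-box TTATGTAA or the clock E-box CACGTG in capitals; both motifs were searched on both strands. Per3 lies on the minus strand at chr4:151044666-151044915 and Per1 on the plus strand at chr11:69098699-69098948.
Per3: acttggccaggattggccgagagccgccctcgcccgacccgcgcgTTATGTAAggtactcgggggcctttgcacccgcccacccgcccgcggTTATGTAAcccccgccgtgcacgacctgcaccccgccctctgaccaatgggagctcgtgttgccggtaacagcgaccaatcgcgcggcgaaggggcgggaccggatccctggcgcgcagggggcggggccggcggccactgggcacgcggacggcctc
Per1: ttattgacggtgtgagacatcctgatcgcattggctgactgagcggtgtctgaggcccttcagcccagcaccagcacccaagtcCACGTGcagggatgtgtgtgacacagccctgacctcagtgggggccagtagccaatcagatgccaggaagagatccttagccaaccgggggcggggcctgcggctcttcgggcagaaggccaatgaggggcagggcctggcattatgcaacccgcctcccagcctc
The Per3 window held the D-box at 2 places, starting 205 and 158 bases upstream of the start, and the Per1 window held the E-box at 166 bases upstream. Of 27025 RefSeq promoters cut to the same window, 0.862% held TTATGTAA and 6.05% CACGTG. Per1 has 2 promoters in the table and the first was used. The motifs were chosen after the values were known, and a match is a description of the sequence only.

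Slow fibre genes gave the largest differences of any list. Slow (type I) fibres use their own isoforms of myosin, troponin and tropomyosin and the SERCA2 calcium pump, and are few in mouse gastrocnemius. Of 12 slow fibre genes compared, 8 were at least 2-fold lower at 24 h than on the adrenalectomized array and 0 were higher by 1.5-fold, against 1.06% of all genes at least 2-fold lower. The median log2 ratio was -1.77. All 8 were also low at 3 h and high in intact muscle. For these 8 genes, picked on their 24 h ratio, the 2 arrays of injected mice thus lay together, as did the 2 of uninjected mice.

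The slow troponins, which make thin filaments sensitive to calcium, led the list. Tnnt1, slow troponin T, read 9315 intact, 11148 adrenalectomized, 2711 at 3 h and 2280 at 24 h, which is 4.89-fold lower at 24 h. Its second probe set read 1259, 1474, 495 and 681, or 2.16-fold lower. Tnnc1, the troponin C of slow and cardiac muscle, read 3938, 4868, 1296 and 1011, or 4.82-fold lower. Tnni1, slow troponin I, read 5659, 7031, 1768 and 1802, or 3.9-fold lower. In each of the 3 genes the 3 h and 24 h signals were both below the intact and adrenalectomized ones. These are single arrays of different groups and not replicates. The genes were picked for a low 24 h signal against the adrenalectomized array. The share of all genes with this order is not given.

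Genes of the motor and the pump were likewise lower on both arrays of injected mice than on both of uninjected mice. Myh7, the slow myosin heavy chain, read 8238, 9420, 2342 and 2325, which is 4.05-fold lower. Its light chain Myl2 read 12949, 13850, 4890 and 4627, or 2.99-fold lower, and Myl3 had a ratio of -1.55. Tpm3, slow tropomyosin, read 6936, 7136, 1854 and 1677, or 4.25-fold lower. Atp2a2, SERCA2, read 3971, 4545, 1119 and 1045, or 4.35-fold lower. The reductions of these genes lay within a narrow band, from 2.92-fold for Myl3 to 4.89-fold for Tnnt1. The probe sets of Tnnt1, Atp2a2 and Myh7 carry a suffix that marks probes shared between transcripts.

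The remaining members of the list were all within 1.5-fold. Mb, myoglobin, had a ratio of -0.55, Car3, carbonic anhydrase 3, -0.14 and Cox6a1, a cytochrome oxidase subunit, 0.00. Casq2, the cardiac and slow calsequestrin, was dim and had 0.43, in the other direction from most of the list. The summed signal of all 12 genes was 93604 intact, 102245 adrenalectomized, 48964 at 3 h and 46679 at 24 h. The sum at 24 h was thus under that of either uninjected array.

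Fast fibre genes differed little on the same arrays. Of 18 compared, none passed 1.5-fold in either direction, against 5.49% of all genes higher and 4.51% lower, and the median was 0.01. Myh4, the heavy chain of the fastest fibres, read 33475 intact, 34919 adrenalectomized, 33149 at 3 h and 34187 at 24 h, and Myh1, the IIx heavy chain, had a ratio of -0.03. The largest was Tnni2, fast troponin I, with 0.32. Summed fast fibre signals ran from 368520 to 379013 over the 4 arrays. Many of these probe sets are near the top of the array's range, where differences in RNA can be compressed. Calcium handling genes other than Atp2a2 were all within 1.5-fold, with a list median of -0.03 over 16 genes.

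**Figure D4:**
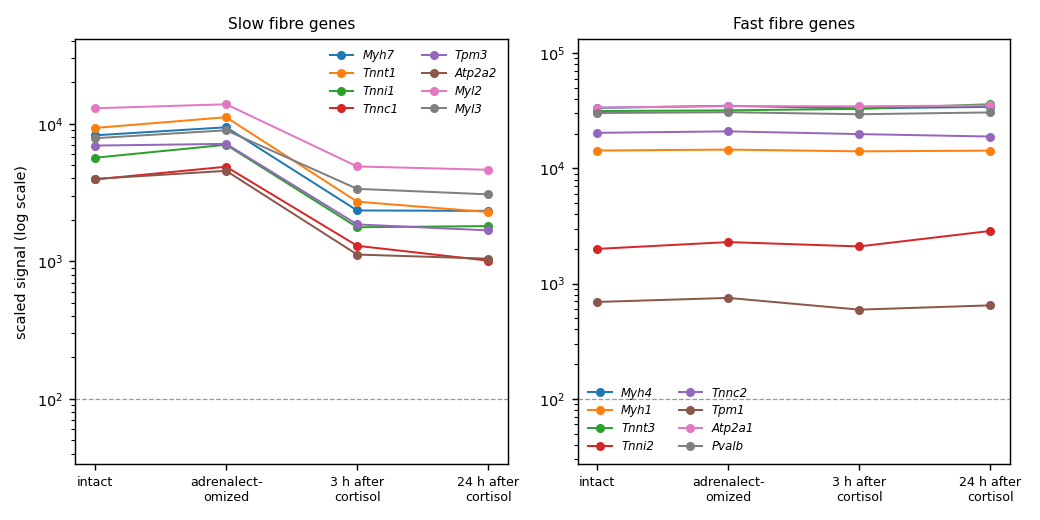
Scaled signal (log scale) of slow fibre genes (left) and fast fibre genes (right) on the 4 arrays, 1 point per array and gene, lines joining the values of a gene and a dashed line at the floor of 100. All 8 slow genes step down together between the uninjected and the injected arrays, for example Myh7 from 9420 to 2325 at 24 h, while fast genes such as Myh4 (34919 and 34187) stay level.

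The promoters of the 3 slow troponin genes are printed because these genes lay low together. Each is the 250 bases before the RefSeq start (GRCm38.p6), 5′ to 3′ on the gene's strand, with matches in capitals to 3 short motifs searched on both strands: the E-box forms CAGCTG and CACCTG, bound by myogenic factors such as MyoD, and the M-CAT core CATTCC, bound by TEAD factors. A capital run can be the reverse complement of the motif. Tnnt1 is at chr7:4515976-4516225 on the minus strand, Tnnc1 at chr14:31208062-31208311 and Tnni1 at chr1:135799171-135799420, both on the plus strand.
Tnnt1: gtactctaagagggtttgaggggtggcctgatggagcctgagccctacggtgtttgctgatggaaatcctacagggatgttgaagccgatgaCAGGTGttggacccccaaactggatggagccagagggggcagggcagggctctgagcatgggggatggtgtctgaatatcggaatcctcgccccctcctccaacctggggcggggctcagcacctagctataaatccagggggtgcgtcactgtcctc
Tnnc1: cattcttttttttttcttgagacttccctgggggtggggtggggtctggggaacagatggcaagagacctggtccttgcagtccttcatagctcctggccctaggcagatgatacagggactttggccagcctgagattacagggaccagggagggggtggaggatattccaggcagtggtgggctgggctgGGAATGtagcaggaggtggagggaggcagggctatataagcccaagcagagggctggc
Tnni1: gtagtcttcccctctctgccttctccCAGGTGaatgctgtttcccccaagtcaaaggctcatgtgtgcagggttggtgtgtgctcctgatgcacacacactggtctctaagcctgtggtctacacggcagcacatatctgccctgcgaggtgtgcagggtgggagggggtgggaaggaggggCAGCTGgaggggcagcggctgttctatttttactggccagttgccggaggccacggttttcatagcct
Tnnt1 held CACCTG 158 bases upstream of its start, Tnni1 held CACCTG at 224 and CAGCTG at 68, and Tnnc1 held CATTCC at 58. Among the 27025 promoters, 27.4% held at least 1 of the E-box forms (12.8% CAGCTG, 17.1% CACCTG) and 12.6% held CATTCC, so such matches are common. Tnni1 has 2 promoters in the table, of which the first was used. No 1 of the 3 motifs was in all 3 windows, and the motifs were chosen after the values were known.

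Collagens and other matrix genes had lower signals at 24 h than on the adrenalectomized array. Fibrillar collagens I and III form the tensile scaffold around fibres and are made by fibroblasts, in which glucocorticoids are known to reduce collagen synthesis. Of 33 genes compared for fibrillar collagens and matrix remodelling, 9 were at least 1.5-fold lower and 0 higher, against 4.51% and 5.49% of all genes. The median was -0.38 and 31 of the 33 ratios were below 0. The 2 above 0 were 0.29 for Tnc, tenascin C, and 0.13 for Mfap2, a microfibril protein.

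Col1a1, the α1 chain of collagen I, read 8595 intact, 10669 adrenalectomized, 8294 at 3 h and 6054 at 24 h, or 1.76-fold lower at 24 h. Its second probe set read 3108, 3406, 3366 and 3024, a ratio of -0.17. Col1a2, the α2 chain, read 4811, 6063, 4998 and 3285, or 1.85-fold lower, but a dimmer second set, of a relaxed design, read 1661 and 1998, or 1.2-fold higher. Col3a1 read 3048, 3480, 3681 and 2074, or 1.68-fold lower, with -0.40 and -1.19 in its other sets. For collagen I the size therefore depends on the probe set, and for Col1a2 the sign does too.

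Other matrix genes had like values. Col5a2, which regulates collagen I fibril width, read 1278, 1375, 1191 and 779, or 1.76-fold lower. Lox, the enzyme that cross-links collagen, read 247, 378, 319 and 207, or 1.83-fold lower, with -0.04 in a dim second set. Postn (periostin), Fmod (fibromodulin) and Mfap5 had ratios of -0.74, -0.60 and -0.60, and Col6a1 and Col6a2 of the collagen VI network -0.38 and -0.56. The cytokine Tgfb1, which drives matrix synthesis, was at least 2.27-fold lower, read above the floor on the adrenalectomized array alone at 227. The 24 h signals of the 3 collagens Col1a1, Col1a2 and Col3a1 were the lowest of the 4 arrays.

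Basement membrane genes, whose products sheath fibres and capillaries, followed the same direction. Of 15 compared, 4 were at least 1.5-fold lower and 1 higher, against 4.51% and 5.49% of all genes, with a median of -0.39. The 4 include Col18a1, whose probe sets disagree. Col15a1, a collagen that links basement membranes to the surrounding matrix, read 1063, 1548, 1233 and 908, or 1.7-fold lower. Nid1, nidogen, was 1.65-fold lower. Col4a2, a chain of the collagen IV network, read 2077 intact, 3516 adrenalectomized, 3211 at 3 h and 2317 at 24 h, or 1.52-fold lower, and was within 1.12-fold of intact. Its partner Col4a1 read 4298 and 3286, a ratio of -0.39. Both collagen IV chains were highest on the adrenalectomized or 3 h array and lower in intact and 24 h muscle.

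Of the 15 basement membrane genes, 12 had a ratio below 0 and 3 above 0. The 1 at least 1.5-fold higher was Lamb2, the laminin β2 chain found at synapses, 1.59-fold higher at 765 against 480.3. Col18a1 was 1.61-fold lower in its brightest probe set, but its 5 sets averaged 0.02. Summed over all 35 fibrillar and matrix genes on the array, the signal was 71688 intact, 81584 adrenalectomized, 68834 at 3 h and 60165 at 24 h, and over the 15 basement membrane genes 15863, 21887, 20893 and 16807. The adrenalectomized array thus held the highest sum of both lists, which enters every ratio here.

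Insulin and insulin-like growth factor genes had a median of -0.18 over 23 compared, with 4 at least 1.5-fold lower and 0 higher, against 4.51% and 5.49% of all genes. Pik3r1, the regulatory subunit of PI 3-kinase, read 257 intact, 277 adrenalectomized and 149 at 24 h, or 1.86-fold lower. Cish, a cytokine signalling suppressor, was 1.6-fold lower at 540.1 against 867, and Grb10, an adaptor that dampens insulin signalling, 1.57-fold lower. Igf1, the growth factor, read 1057, 1473, 1125 and 1301, a ratio of -0.18, and its dimmer set 292 and 143, or 2.04-fold lower. Genes that carry the signal and genes that damp it were both among the lower ones.

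Myogenic regulators had a median of -0.09 over 19 genes. Smad3, which carries the signal of TGF-β and myostatin, read 319.8, 493, 212 and 205, or 2.41-fold lower at 24 h. Fst, follistatin, an antagonist of myostatin, was at least 1.81-fold lower at 181 against a signal under the floor. Mstn, myostatin, a brake on muscle growth, read 2347, 1986, 2938 and 2469, a ratio of 0.31. Its 24 h signal was within 1.1-fold of intact.

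All 10 genes of the neuromuscular junction and denervation list had a ratio below 0, with a median of -0.24. At least 1.5-fold lower were 2, against 4.51% of all genes. Chrna1, the acetylcholine receptor α subunit, read 191, 303, 209 and 162, or 1.87-fold lower. Chrne, the adult ε subunit, was 1.51-fold lower in its brightest set, with 0.48 and -0.03 in the other two. Myog, myogenin, had -0.03 and Gadd45a -0.38. The sizes were small, and with probe sets disagreeing for Chrne the direction of that gene is not settled.

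Lymphocyte genes were higher at 24 h than on the adrenalectomized array, where several were at their lowest. Of 20 B and T cell markers on the array, 12 could be compared; 6 were at least 2-fold higher and 0 lower, against 1.27% of all genes higher, and the median was 0.77. These values rest on dim signals: with a floor of 200 the median was 0.39 and 1 of 9 compared, Cd79a, was past 2-fold, and with a floor of 50 the median was 0.38 and 6 of 15 were. The 8 others, among them Cd3g, Cd8a and Cd8b1, were below the floor on both arrays. As background, glucocorticoids are known to lower the number of circulating lymphocytes.

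Cd79a, a signalling chain of the B cell receptor, read 262 intact, 129.6 adrenalectomized, 246 at 3 h and 528 at 24 h, or 4.08-fold higher. Its partner Cd79b read 118, 69.3, 196 and 262, or at least 2.62-fold higher, and Jchain, which joins secreted antibody units, 157, 81.4, 206 and 341, or at least 3.41-fold. Blk, a B cell kinase, was at least 2.37-fold and Cd22, a B cell surface lectin above the floor at 24 h alone, at least 2.04-fold higher. Cd4, the helper T cell coreceptor, read 268, 127, 243 and 337, or 2.65-fold higher. In all 6 the 24 h array was the highest of the 4 and the adrenalectomized array the lowest. For Cd22 the 3 other arrays were all under the floor and so have no order. The 6 were picked for a ratio past 2-fold, which partly fixes this order. Of all 79 genes at least 2-fold higher, 77.2% were highest at 24 h and 69.6% lowest on the adrenalectomized array.

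An antibody and a T cell receptor segment outside the list are named because their 24 h ratios were among the highest of all genes. Their order over the arrays is partly set by that choice. Igkv6-23, an immunoglobulin κ variable segment, read 411, 69.7, 468 and 1332, or at least 13.3-fold higher, the highest ratio of all genes. Trbv1, a T cell receptor β segment, read 249, 134, 208 and 356, or 2.66-fold higher. Both probe sets carry a suffix for shared probes, so related segments may contribute. Other members differed little: Ighm, the IgM heavy chain, had 0.51, and Ms4a1 (CD20), Cd7 and Zap70 -0.11, -0.11 and -0.10. Summed over the 20 markers the signal was 4479, 3792, 4755 and 6099; the part of lymphocytes in blood, lymph node or muscle of the samples was not tested.

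Other immune genes gave smaller and mixed values. The 29 genes of interferon response and antigen presentation had 0.16 as their median. At least 1.5-fold higher were 2, and 0 were lower, against 5.49% and 4.51% of all genes. This median turns to -0.15 with scaling to ribosomal protein sets, which moves the median of all genes to -0.29. Irf8, a transcription factor of B cells and macrophages, was 1.96-fold higher, at 315 against 161, and Psmb9, an immunoproteasome subunit, 1.56-fold higher. H2-Eb1, a class II antigen presentation chain, had 0.51. Macrophage markers had a median of -0.10 over 19: Cd53 was at least 2.14-fold and Fcgr3, an antibody receptor, at least 1.88-fold higher, while Mrc1, the mannose receptor, was 1.93-fold lower. Among inflammatory mediators Ccl8, a chemokine, was 2.19-fold higher at 229.9 against 105, and the median of 15 was -0.05. Neutrophil markers had a median of 0.21 over 6, which turns to -0.10 with the same ribosomal scaling. Relative to the median of all genes, the neutrophil list stayed between 0.19 and 0.35 under the alternatives. The interferon list stayed between 0.13 and 0.16.

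Transcripts of liver were lower and those of skin higher at 24 h, and neither belongs to muscle fibres. Of 34 hepatocyte markers, 20 could be compared; 10 were at least 1.5-fold lower and 1 higher, against 4.51% and 5.49% of all genes. Past 2-fold were 6 and 1, against 1.06% and 1.27%, and the median was -0.56. Without probe sets whose suffix marks shared or relaxed design, 15 could be compared and 1 was at least 2-fold lower. Alb, serum albumin, read 956 intact, 686 adrenalectomized, 282 at 3 h and 218 at 24 h, or 3.14-fold lower. Serpina1b, an α1-antitrypsin, read 698, 507, 207 and 105, or 4.82-fold lower, and its near-identical copies Serpina1e and Serpina1c 3.35-fold and 2.78-fold lower, with probes that may be shared. The urinary protein gene Mup3 read 1041, 666, 315 and 236, or 2.82-fold lower. Kng1, kininogen, went the other way at 127 and 286, or 2.25-fold higher.

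All the liver genes just named except Kng1 were highest in intact muscle and lowest at 24 h. Their summed signal over 34 markers was 11920, 9129, 6822 and 6362, so the decline ran over all 4 arrays, while the slow fibre sum was higher after adrenalectomy than in intact muscle. The part of other tissue in the samples was not tested.

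**Figure D5:**
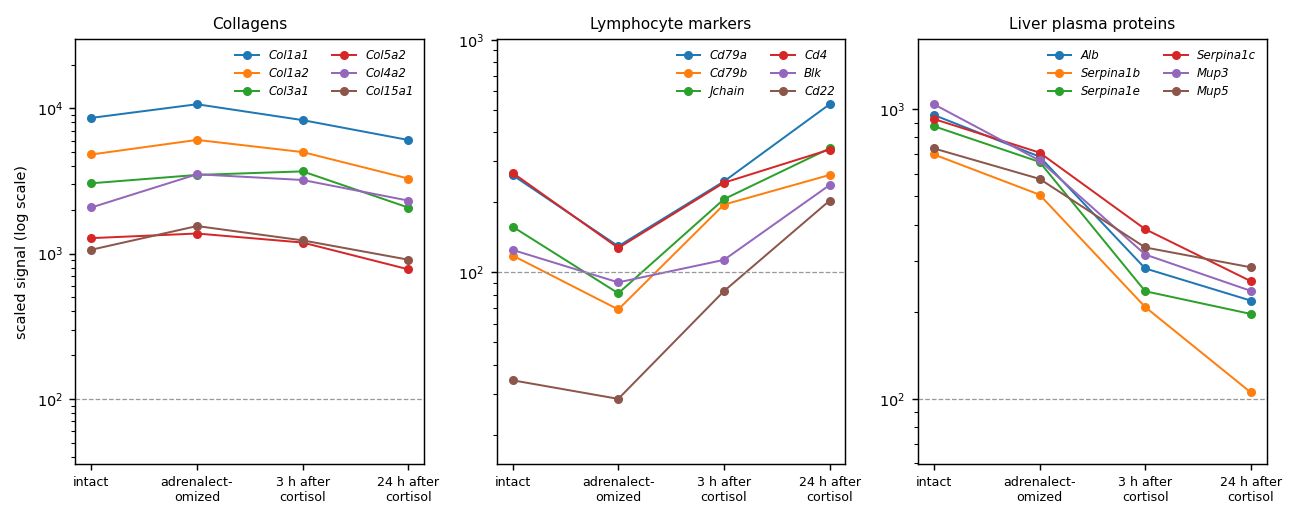
Scaled signal (log scale, a different range in each panel) of collagens (left), lymphocyte markers (middle) and liver plasma protein genes (right) on the 4 arrays, 1 point per array and gene, lines joining the values of a gene and a dashed line at the floor of 100. Collagens are lower at 24 h than on the adrenalectomized array, for example Col1a1 from 10669 to 6054. The lymphocyte markers shown, picked for a ratio past 2-fold, are lowest on the adrenalectomized array and highest at 24 h (Cd79a 129.6 and 528). Liver genes step down through to 24 h (Alb 686 and 218).

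Of 53 epidermis and hair follicle markers, 32 could be compared; 16 were at least 1.5-fold higher and 0 lower, against 5.49% and 4.51% of all genes, with 9 past 2-fold, against 1.27%, and a median of 0.60. With a floor of 200, 25 could be compared and 2 were past 2-fold. Krt10, a keratin of the upper epidermis, read 227 intact, 175 adrenalectomized, 2549 at 3 h and 531 at 24 h, or 3.03-fold higher than after adrenalectomy. Krt71, a keratin of the hair root sheath, read 172, 202, 1614 and 460.4, or 2.27-fold higher. Krt27 was at least 2.76-fold, Dsp, desmoplakin of cell junctions, at least 2.72-fold, Krtdap at least 2.66-fold and Krt25 at least 2.26-fold higher. All 6 were much higher at 3 h than at 24 h. The basal keratins Krt5, Krt14 and Krt15 were under the floor on all 4 arrays. Summed over the 53 markers the signal was 8624, 8593, 26828 and 12506, and whether skin was present in the samples was not tested.

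Of the 145 genes past 2-fold, 30 belonged to the slow or fast fibre, liver, skin, lymphocyte, erythroid or adipocyte lists, which is 20.7% of them, while these lists hold 110 (1.77%) of the 6228 genes compared. The fast fibre, erythroid and adipocyte lists had 0 members past 2-fold. This pool of lists was chosen with earlier results known and leaves out the macrophage, neutrophil, endothelial, satellite cell and Schwann cell lists. The shares are thus a description only. Several marker lists, the adipocyte and erythroid ones among them, differed less. Their medians were -0.17 for 18 endothelial, -0.13 for 9 adipocyte, -0.10 for 8 erythroid, -0.03 for 11 satellite cell and smooth muscle, and 0.04 for 10 Schwann cell and nerve genes. Nos3, the endothelial nitric oxide synthase, was 1.59-fold lower at 151 against 239. Among Schwann cell genes, Gfap and Mag were 1.79-fold and 1.55-fold higher, both dim.

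Housekeeping and stress lists were centred near 0. Ribosomal proteins had a median of 0.05 over 25, heat shock proteins 0.05 over 17, antioxidant and detoxification genes -0.01 over 24 and cell cycle genes -0.08 over 26. Of antioxidant genes, Gpx1, glutathione peroxidase, was 1.64-fold higher at 1015 against 618, and Gstm2, a glutathione transferase, 2.08-fold lower at 522 against 1087, though its second set, of relaxed design, read 735 after adrenalectomy and 826 at 24 h, a ratio of 0.17. Of cell cycle genes, Ccnd3, cyclin D3, was 1.84-fold lower at 453 against 835, and Mcm5, a replication helicase subunit, 1.74-fold lower. Of immediate early genes, Ccn1 was at least 2.02-fold and Fos 1.65-fold lower, against a median of 0.10 over 22 that turns to -0.21 with ribosomal scaling. Relative to all genes that median stayed between 0.04 and 0.10 under the alternatives. The single ribosomal gene past 1.5-fold, Rpl32, was at least 1.86-fold higher from a probe set of relaxed design that read 37.4 and 186.

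Cholesterol and fatty acid synthesis genes had a median of 0.10 over 17, which is -0.21 with ribosomal scaling. Relative to all genes it stayed between 0.07 and 0.11 under the alternatives. Sqle, squalene epoxidase, was 1.77-fold higher at 204 against 115, and Scd2, a fatty acid desaturase, 1.52-fold higher at 1302 against 856. Cyp51, a sterol demethylase, was at least 1.57-fold lower. The sterol enzymes Sqle and Cyp51 thus lay on opposite sides of 0. Both are dim, and under the alternatives their ratios came as near 0 as 0.03 and 0.

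Outside these lists the highest ratios were mostly of dim genes with a low adrenalectomized signal. Ada, adenosine deaminase, read 469.8 intact, 218 adrenalectomized, 606 at 3 h and 672 at 24 h, or 3.08-fold higher, and averaged 0.68 over 3 probe sets. Tex2 read 382, 112, 295 and 346, also 3.08-fold, and Cacnb2, a calcium channel β subunit, 192, 111, 219.5 and 327, or 2.94-fold. Atad3a, a mitochondrial ATPase, was 2.95-fold, Traip, a ubiquitin ligase, 2.7-fold, Drd4, a dopamine receptor, 2.69-fold and Ccl1, a chemokine, 2.64-fold higher. The set of Atad3a is of relaxed design. Other sets of Atad3a, Traip and Ccl1 were under the floor, and over all sets these genes averaged 0.52, 0.72 and 0.70. Hcrt and Otog, genes of hypothalamus and inner ear, were at least 4.21-fold and 3.76-fold higher. For Ada, Tex2, Hcrt and Otog the 3 other arrays were all well above the adrenalectomized one, so the low value lies there.

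A few bright genes were higher at 24 h than on all 3 other arrays. Tmem70, an assembly factor of ATP synthase, read 694, 678, 494 and 1927, or 2.84-fold higher. Med27, a Mediator subunit, read 1459, 1572, 1502 and 4107, or 2.61-fold higher, from a probe set of relaxed design. Sft2d1, a vesicle trafficking gene, read 605, 759, 929.7 and 1468, or 1.93-fold higher, and Ergic3, of the same transport route, was 1.69-fold higher at 1303 against 769. By contrast Gpcpd1, a phosphodiesterase of choline metabolism, read 2295, 1191, 2627 and 2692, and Pdgfa, a growth factor, 1253, 835, 856 and 1387, so that their 24 h signals were within 1.2-fold of intact. Shkbp1 was 1.66-fold higher with the same order as Gpcpd1.

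The lowest ratios outside the lists included several regulators. Zbtb17 (Miz-1), a transcription factor, read 379, 561, 134 and 139, or 4.04-fold lower. Lef1, a Wnt pathway factor, read 185, 457, 113 and 117, or 3.91-fold lower, but its dim second set had a ratio of 0.45. Rab3a, a vesicle GTPase, read 627, 591, 355 and 160.3, or 3.69-fold lower, and Bcar1, a focal adhesion scaffold also called p130Cas, 492, 545, 365 and 164, or 3.31-fold lower. The first pair was low at 3 h already, while Rab3a and Bcar1 were lowest at 24 h.

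Among the genes below the floor at 24 h, the bounds were largest for Meg3, Get4, Myt1l and Atp13a1. Meg3, a long noncoding RNA, read 535, 509, 336 and 76.8, or at least 5.09-fold lower, but its second probe set read 320, 361, 348 and 349, a ratio of -0.05. Get4, which guides membrane proteins to the endoplasmic reticulum, was at least 3.99-fold, the neural factor Myt1l at least 3.4-fold and the transport ATPase Atp13a1 at least 3.08-fold lower. For Meg3 the 2 probe sets do not give the same answer.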

How the data were processed

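Per the labels, each group had 1 array of pooled gastrocnemius RNA. Per the labels, the authors analysed the scanned images with MAS 5.0, and what they deposited is an intensity per probe set on a linear scale, with a trimmed mean near 500 on each array. For other settings the sources used here give nothing. The fluidics module and chip lot (1 lot) came from the deposited instrument records.

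The signals of non-control probe sets were scaled to a 2% trimmed mean of 500, floored at 100 and compared as log2 ratios. Each gene was represented by its brightest probe set, and symbols came from GEO's platform annotation (GRCm38.p6 gene table, 10817 of 10833 sets matched, 0 symbols changed). Named genes were the 12 highest and 12 lowest ratios past 2-fold measured on both arrays, the 4 highest and lowest bounds, the 8 highest and lowest past 1.5-fold with a mean signal of at least 1000, a set of known glucocorticoid, clock and metabolic genes, and up to 6 members per list and direction past 1.5-fold. Other genes named beside them were chosen after their values were seen. The members and all lists were chosen with earlier results of these data known. Python 3.11.15, numpy 2.4.6 and pandas 2.3.3 were used, and the ratio code was tested on simulated data. Alternatives covered the floor, the scaling, the choice of probe sets, the threshold and the marker lists. Probe sets with several symbols (396) or none (1193) were left out, and so were the fits between other pairs of arrays.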

Additional observations from a re-analysis of the deposited data

Results flagged for a closer look

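Of the named genes, 4 lay at least 1.5-fold to one side of the adrenalectomized array at 3 h and at least 1.5-fold to the other side at 24 h. Cebpd had a log2 ratio of -0.83 at 24 h, Ddit4 -0.60 and Sox4 -0.90, each after a higher signal at 3 h, while Dbp had 1.07 at 24 h after a lower one. The difference between the times was not tested, both ratios share the adrenalectomized array, and the second probe set of Sox4 had -0.03 at 24 h.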

How the results depend on the processing

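The counts of 79 higher and 66 lower genes became 196 and 158 with a floor of 50, 17 and 26 with a floor of 200, 38 and 172 with scaling to ribosomal protein sets, 52 and 53 with the mean of all probe sets, and 342 and 281 at 1.5-fold. Restricted to genes with a mean signal of at least 300, an alternative chosen after seeing the data, they were 15 and 24. With scaling to the 28 of 42 ribosomal sets measured on all arrays, also chosen after seeing the data, they were 62 and 78. Relative to the median of all genes, lymphocyte markers moved to 0.36 and 0.39 with floors of 50 and 200, Schwann cell genes to 0.15 with the lower floor, and epidermis and hepatocyte markers to 0.39 and -0.40 with the higher one. With the mean of all probe sets, epidermis and hepatocyte markers stood at 0.37 and -0.46, basement membrane genes at -0.27, slow fibre genes at -1.30, neutrophil markers at 0.32, and adipocyte markers changed sign to 0.0173, as did Col18a1 to 0.0170. Without suffixed probe sets slow fibre genes stood at -1.55, neutrophil markers at 0.35, hepatocyte markers at -0.44, and Chrne changed sign to 0.48. In the mean of all probe sets, a set under the floor on both arrays counts as 0. The second sets of Myh7, Tpm3, Krt10 and Dsp were of this kind. How much of the shifts came from this was not tested, nor was the cause of the others. Of 1130 values for 127 named genes under the alternatives, 10 in 8 genes had the opposite sign, 2 of them (Col18a1 and Chrne) among the 103 genes at least 1.5-fold apart; the others were Bhlhe40, Gadd45g, Cdkn1a, Mt2, Foxo3 and Odc1, all under 1.5-fold. By size, 99 moved past the probe set SD of 0.317; of 324 for 36 lists, 310 moved by under 0.1. No paired analysis was possible because each group had 1 array. Depth is unknown for arrays: the number of arrays and the dimness of most 2-fold genes limit the precision.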

Other observations

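The 1589 probe sets without a single gene symbol were kept out of the comparison. Of these, 852 reached the floor on the 24 h or the adrenalectomized array, 24 were at least 2-fold higher at 24 h and 13 at least 2-fold lower, together 4.34%.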
